A study of Mus musculus with 8 samples.

Results

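The genes described are the mouse translation initiation factors eIF1 to eIF6 and elongation factors eEF1 and eEF2, with the kinases, exchange factors and binding proteins named after them. They were taken by symbol, as every row that starts with Eif followed by a digit from 1 to 6 or with Eef followed by 1 or 2, which gave 64 of the 32531 gene rows. All 8 libraries hold RNA bound to ribosomes that were pulled out of dissected tissue with antibodies against EGFP. All mice were of the line Drd1-TRAP CP73 (transgene Drd1-EGFP/Rpl10a), aged over 20 months and untreated. In this line the Drd1 promoter, that of the dopamine D1 receptor, drives a ribosomal protein, L10a, fused to EGFP, so the tag is limited to cells in which that transgene is active. The study set 4 libraries from the dorsal striatum against 4 from the nucleus accumbens. The labels do not say whether a library came from 1 mouse or from a pool, nor whether both regions came from the same mice, and the p-values therefore reflect the scatter among these 8 libraries alone, which may be in part technical.

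Translation of most messenger RNAs begins when eIF4E binds the 5′ cap, the scaffold eIF4G recruits the helicase eIF4A, and a small ribosomal subunit carrying eIF3, eIF1, eIF1A, eIF5 and the eIF2 complex with initiator tRNA scans to the start codon. eIF2 must be recharged with GTP by eIF2B, a step that kinases of the eIF2 alpha subunit block under stress, while the 4E-BP proteins hold eIF4E away from eIF4G until the kinase mTOR phosphorylates them. In elongation, eEF1A delivers aminoacyl-tRNAs, the eEF1B complex reloads it with GTP, and eEF2 moves the ribosome along the message until eEF2 kinase switches it off. In neurons, these same steps set local protein synthesis at synapses.

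Counts assigned to genes ranged from 7466970 to 10363145 in the dorsal libraries and from 10831937 to 12639641 in the accumbens libraries. Dorsal striatum 3 and accumbens 2 stood at opposite ends of the first principal component and had the lowest median rank correlations to the other libraries, 0.9345 and 0.927, beside 0.936 to 0.955 for the rest. Summed CPM (counts per 1000000 gene counts, on library sizes scaled with TMM) of 9 direct-pathway neuron markers ran from 2322 to 2658 in dorsal striatum and from 1981 to 2247 in accumbens, and of 8 indirect-pathway markers from 263 to 398 and from 735 to 1026. Markers of the tagged cell type were thus present in every library, and so were those of the other projection neuron class. The 9 direct-pathway markers went both ways, 2 of them higher in accumbens. Pdyn averaged 211 CPM in dorsal striatum and 427 in accumbens, whereas Ebf1 averaged 100 and 42.2 and Eya1 875 and 599.5. Summed CPM of 11 markers that both classes share ran from 14620 to 16720 in dorsal striatum and from 11000 to 12500 in accumbens. In bulk RNA of this kind, fewer cells of a type and less RNA per cell cannot be told apart.

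2 pairs of near copies carry much of what follows, and their sequences show how reads tell them apart. The first 60 coding bases of Eef1a1 and Eef1a2, the copies of eEF1A, are printed 5′ to 3′ with the 11 bases that differ in capitals:
Eef1a1: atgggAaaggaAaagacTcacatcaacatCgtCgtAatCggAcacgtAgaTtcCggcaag
Eef1a2: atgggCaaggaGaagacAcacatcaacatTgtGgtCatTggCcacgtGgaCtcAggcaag
Over the whole coding sequence in GENCODE M21 (GRCm38, the build that mm10 names), 80.1% of 1386 aligned bases were identical. The X-linked and Y-linked copies of the eIF2 gamma subunit, which holds the initiator tRNA, differ at 13 of the same 60 positions:
Eif2s3x: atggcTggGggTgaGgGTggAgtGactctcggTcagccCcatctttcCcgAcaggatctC
Eif2s3y: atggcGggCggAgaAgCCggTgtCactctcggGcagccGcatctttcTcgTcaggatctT
Their coding sequences share 86.3% of 1416 bases.

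Many elongation factor messages are known to start with a C followed by an unbroken run of C and T, the terminal oligopyrimidine or TOP tract, through which mTOR controls their translation. RefSeq (GRCm38.p6) gave a start window for 50 of the 64 genes. In each window a C followed by at least 4 bases that are each C or T was looked for on the transcribed strand, starting within 10 bases of the annotated start. Such a run stood in 17 of the 50 genes, or 34%, and in 34.4% of all 27025 genes with a window. The windows below run from 10 bases before the start to 20 bases from it, with the run in capitals. They are shown for both eEF1A copies, both eIF2 gamma copies and Eif3f, which has the longest run among the 50.
Eef1a1 (chr9:78481705-78481734, minus strand): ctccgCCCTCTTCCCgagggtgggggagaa
Eef1a2 (chr2:181156996-181157025, minus strand): cctggtctgcgttctcgctcactggttctc
Eif3f (chr7:108934405-108934434, plus strand): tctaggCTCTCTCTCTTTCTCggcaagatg
Eif2s3x (chrX:94212632-94212661, minus strand): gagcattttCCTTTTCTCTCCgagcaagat
Eif2s3y (chrY:1010585-1010614, plus strand): ggccacagccaCTTCCTTCTTTCgtgagca
In Eef1a1 the run began 5 bases before the annotated start and was 10 bases long, so it lay in part outside the annotated message. In 2 of the 50 genes, Eif3f and Eif2s3x, a run could be read from the annotated start itself, which was not so for Eef1a1. The Eef1a1 run is therefore not shown to be its TOP tract. No run stood in the Eef1a2 window. Nor did a run stand in the windows of Eef2 and Eef1b2, although their messages are known to carry a TOP tract. Of other such messages, Eif3f had the run shown, and that of Eif4b began 10 bases after the start. The annotated starts are not measured starts in these cells, and a run is only a match of letters.

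Of the 64 genes, 61 had enough counts to be tested. Eif4e1b, a cap-binding protein known from oocytes, had a count of 0 in every library. Eif4ebp1 and Eif4ebp3, which encode 2 of the 3 4E-BPs, had 1 count each over all libraries. A count of 3 corresponded to between 0.237 and 0.415 CPM.

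Per kilobase of exon, the family ranked high in both regions. The length-scaled level of 19 of the 61 genes lay at or above the 90th percentile of the 11584 tested genes with a known length, and that of 45 lay at or above the 50th. Eef1a1 led, at 226 ± 49.4 CPM per kilobase in dorsal striatum and 331 ± 19.3 in the accumbens (± SD of 4 libraries, as for all levels below unless another error is named). Eif1, which guards start codon choice, followed at 180.1 ± 33.9 and 188 ± 21.9 CPM per kilobase. Eif3a, the helicase gene Eif4a2 and Eef2 came next, at 119 ± 24.3, 115 ± 19.7 and 112 ± 20.6 CPM per kilobase in dorsal striatum, which do not differ beyond their spread. At the other end, the kinase gene Eif2ak2 and Eif3j2 stood at 0.285 ± 0.299 and 0.488 ± 0.135 CPM per kilobase there.

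**Figure D1:**
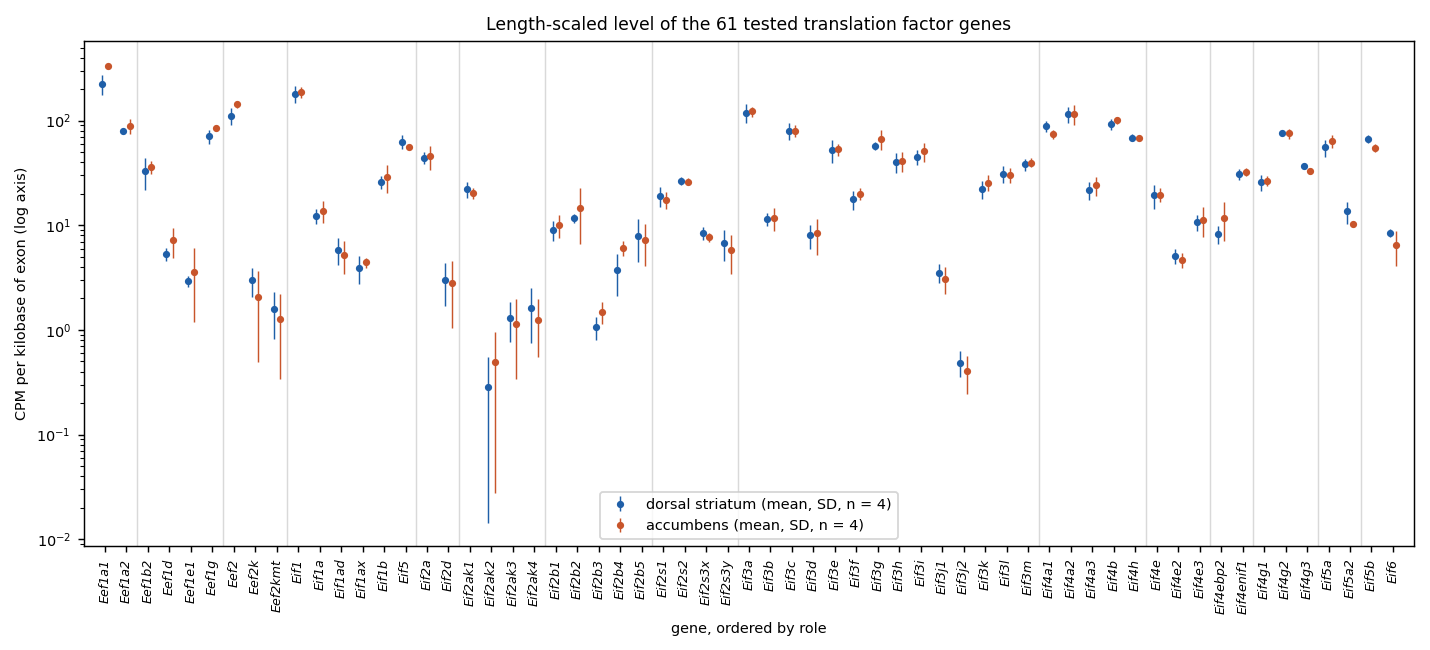
CPM per kilobase of exon on a log axis for the 61 tested translation factor genes, ordered by role with grey lines between roles; points are means and bars SDs of 4 libraries, dorsal striatum in blue and accumbens in orange. Eef1a1 is highest at 226 and 331, and the lowest are Eif2ak2 at 0.285 in dorsal striatum and Eif3j2 at 0.403 in accumbens; the lower bar of Eif2ak2 in dorsal striatum, where the SD exceeds the mean, is shortened to stay on the axis.

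Between the regions, 1 of the 61 tested genes passed edgeR's quasi-likelihood test, with the adjusted p (Benjamini-Hochberg, over all genes tested) below 0.05, and is called here, which is 1.64% of them, beside 3.72% of all 12467 tested genes. That gene, Eef1a1, was higher in accumbens, the direction called for 1.6% of all genes, and 0 were called lower, the direction called for 2.12%. DESeq2 and limma-voom also called Eef1a1 as the 1 gene of the 61, beside 6.12% and 4.17% of all tested genes. At an unadjusted p under 0.05 there were 4 genes, Eef1a1, Eef2, Eif5b and Eif4ebp2, or 6.56%, beside 14.8% of all tested genes. The median log2 fold change (accumbens over dorsal striatum) was 0.04 over the 61 genes and 0.02 over all tested genes, and the median size of the change, whatever its sign, was 0.15 and 0.29. For 2 genes, Eef1a1 and Eif5b, no dorsal value lay within the accumbens range or the reverse, which is 3.28%, beside 9.69% of all tested genes.

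**Figure D2:**
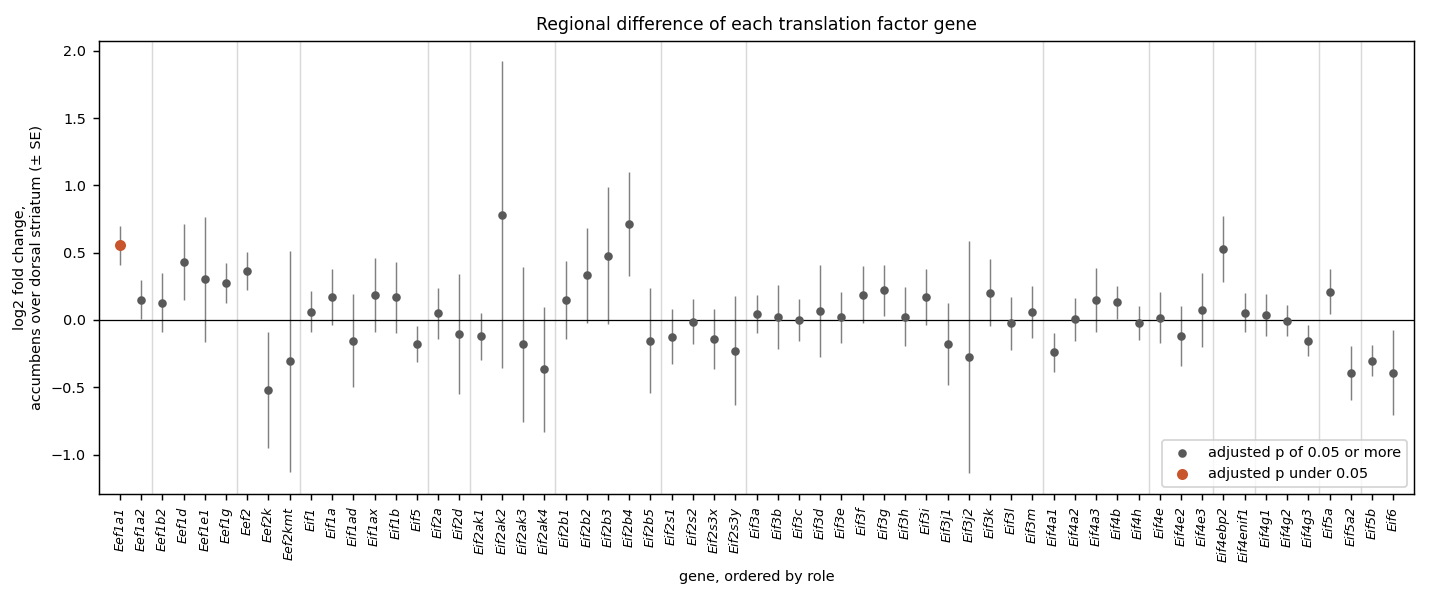
Log2 fold change of each of the 61 genes (accumbens over dorsal striatum, bars ± SE), ordered by role with grey lines between roles; orange marks an adjusted p under 0.05. Eef1a1 at 0.55 is the 1 called gene, and the widest bars belong to genes of few counts such as Eif2ak2.

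Among the elongation factors, Eef1a1 (chromosome 9, 78478449 to 78489151) stood at 483, 480.4, 319.7 and 337 CPM in dorsal striatum 1 to 4. In accumbens 1 to 4 it stood at 631, 614, 579.5 and 554 CPM. All accumbens libraries lay above all dorsal ones, and dorsal striatum 3 and 4 lay well below dorsal striatum 1 and 2. It went from 405 ± 88.6 to 594.5 ± 34.6 CPM (SD, n = 4 each; log2 fold change 0.55 ± 0.14 SE, edgeR adjusted p = 0.0384). The call was lost when dorsal striatum 3 (log2 fold change 0.46, adjusted p = 0.132), dorsal striatum 4 (0.47, 0.125), accumbens 1 (0.53, 0.101), accumbens 2 (0.54, 0.0853), accumbens 3 (0.57, 0.0744) or accumbens 4 (0.59, 0.0555) was left out, and without both dorsal striatum 3 and accumbens 2 (0.44, 0.183).

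Markers of other cell types and values of the read mapping also differed between the regions, most of them with overlap. Summed CPM of 9 astrocyte markers ran from 199 to 375 in dorsal striatum and from 258 to 703 in accumbens, of 8 oligodendrocyte markers from 122 to 191 and from 127 to 323, and of 9 microglia markers from 0.985 to 4.35 and from 4.802 to 17.3, with C1qa at 0 in all libraries. Of the tested markers on these lists, 6 of 7, 5 of 5 and 1 of 1 had positive log2 fold changes. Dorsal striatum 3 and 4, lowest for Eef1a1, also had the lowest mean glial marker levels, -0.59 and -1.01 on a centred log2 scale. Dorsal striatum 1 and 2 stood at -0.33 and 0.46, and accumbens 1 to 4 at 0.75, 0.36, 0.095 and 0.26. Dorsal striatum 2 had a higher glial level than accumbens 2 to 4 and a lower Eef1a1 level. With that level as a covariate, the log2 fold change of Eef1a1 was 0.30 and it was not called (edgeR adjusted p = 0.777). In that fit the calls over all tested genes fell from 464 to 120. Reads aligned to several places, which were not assigned to any gene, made up 9.96% to 15.6% of all reads in the count files in dorsal striatum and 14.98% to 20.01% in accumbens. Of the 50-base stretches of the Eef1a1 transcript, 60.6% also occur in transcripts of 21 other genes, 18 of them pseudogenes. Rn45s, the ribosomal RNA precursor, stood at 59690, 41600, 24790 and 19530 CPM in dorsal striatum 1 to 4 and at 56790, 68300, 62290 and 54180 CPM in accumbens 1 to 4, so dorsal striatum 3 and 4 were low for it too. With Rn45s, Lars2 and AK140265 left out of the counts, the log2 fold change of Eef1a1 was 0.56 (edgeR adjusted p = 0.0360). Summed CPM of 6 excitatory neuron markers was 63.3, 108.6, 13.3 and 4.43 in dorsal striatum 1 to 4, and 85.05, 100.1, 90.6 and 23.8 in accumbens 1 to 4. The part of multiply aligned reads, of ribosomal RNA and of RNA from other cells in the Eef1a1 difference was not tested, and matching single libraries cannot weigh it. The covariate cannot separate RNA from glia from region, since the glial level itself differed in part between the regions.

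Eef1a2, the eEF1A copy known for muscle and mature neurons, has 0% of its 50-base stretches in other genes. It stood at 181, 161, 170.3 and 156 CPM in dorsal striatum 1 to 4 and at 163, 229.9, 164 and 184 CPM in accumbens 1 to 4. The regions overlapped (log2 fold change 0.15 ± 0.14 SE, edgeR adjusted p = 0.712), and accumbens 2 was the highest library. Scaled by exon length, Eef1a2 made up 24.4%, 22.4%, 31.4% and 28.5% of the eEF1A level in dorsal striatum 1 to 4, and 18.2%, 24.4%, 19.6% and 22.3% in accumbens 1 to 4. Eef1a1 was thus the larger share in every library.

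Eef2 (chromosome 10, 81176631 to 81182498), the translocase, stood at 343, 420.0, 355 and 265 CPM in dorsal striatum 1 to 4 and at 412, 482, 463 and 421 CPM in accumbens 1 to 4. Dorsal striatum 2 lay within the accumbens range, and dorsal striatum 4 was lowest. The difference did not pass (log2 fold change 0.36 ± 0.14 SE, edgeR adjusted p = 0.196). Its kinase gene, Eef2k, stood at 11.4, 25.1, 22.7 and 23.7 CPM in dorsal striatum and at 30.4, 6.82, 7.19 and 13.5 CPM in accumbens. Accumbens 1 was the highest and accumbens 2 the lowest of the 8 libraries, and the log2 fold change was -0.52 ± 0.43 SE (edgeR adjusted p = 0.657).

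The subunits of eEF1B had values of the same sign. Eef1g, a structural subunit, stood between 107 and 150.1 CPM in dorsal striatum and between 146 and 169.5 CPM in accumbens (a log2 fold change of 0.27 ± 0.15 SE, edgeR adjusted p = 0.424), but 64.3% of its 50-base stretches occur in other genes. Log2 fold changes were 0.43 ± 0.29 SE for Eef1d and 0.13 ± 0.22 for Eef1b2, both encoding exchange subunits, and 0.30 ± 0.46 for Eef1e1, which belongs to the synthetase complex despite its name. Of the 6 genes of eEF1A, eEF1B and Eef2, Eef1e1 not counted, all 6 had log2 fold changes above 0 (median 0.32), beside 51.8% of all tested genes. Of the other 54 tested translation factors, Eef1e1 again not counted, 29 were positive and 25 negative, with a median of 0.02. Eef1b2 turned to -0.17 with the glial covariate and to -0.01 without dorsal striatum 4, which left 5 of the 6 above 0. These genes were measured in the same libraries, so their signs are not independent. Of 9 translation factor messages known to carry a TOP tract (Eef1a1, Eef1b2, Eef1d, Eef1g, Eef2, Eif3e, Eif3f, Eif3h and Eif4b), 1 was called, again Eef1a1. That is 11.1%, beside 3.72% of all tested genes. All 9 lay above 0 on the log2 scale, from 0.02 to 0.55 with a median of 0.19. Eef1a1, Eef1b2, Eef1d, Eef1g and Eef2 are also among the 6 above, so the tallies are not separate results. With the glial covariate 7 of the 9 lay above 0, without single libraries 7 to 9, and without both dorsal striatum 3 and accumbens 2 there were 7.

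**Figure D3:**
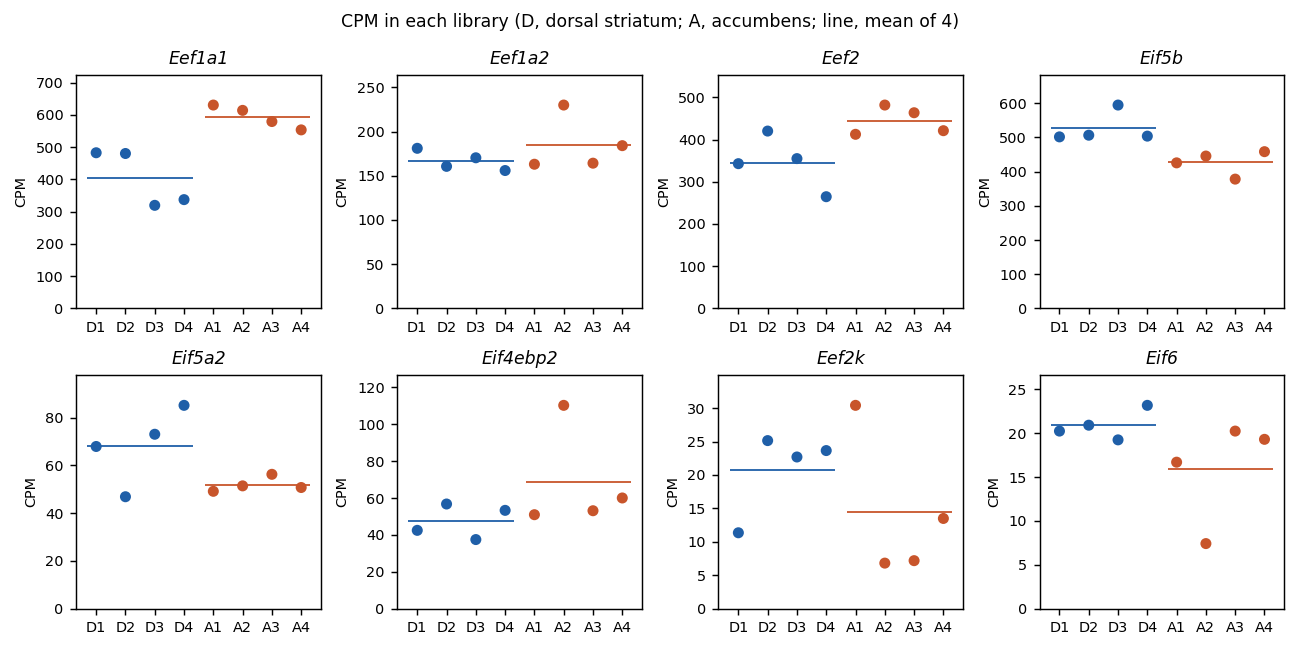
CPM of 8 translation factor genes in each library, with axes from 0; D1 to D4 are the dorsal striatum libraries (blue), A1 to A4 the accumbens libraries (orange), and lines are means of 4. The regions part for Eef1a1 and Eif5b and overlap for the other 6 genes, and accumbens 2 stands high for Eif4ebp2 at 110.2 CPM and low for Eif6 at 7.42 CPM.

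Summed over the 64 genes, CPM was 6982 ± 153 in dorsal striatum, from 6767 to 7101, and 7258 ± 177 in accumbens, from 7112 to 7515 (SD, n = 4 each). Without Eef1a1 the sums were 6577 ± 153 and 6663 ± 159.5, and without Eef1a1 and Eef2 they were 6232 ± 130.4 and 6219 ± 135. The ranges of the regions narrowly did not overlap in the first sum (7101 against 7112) and overlapped in both others. Eef1a1 and Eef2 were left out with their values known. Both were higher in accumbens in these same libraries, so leaving them out narrows the difference by construction. Eif5b, lower in accumbens, was kept in.

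Subunit joining gave the other gene whose regions did not overlap. Eif5b (chromosome 1, 37998010 to 38055579), the GTPase that brings the large ribosomal subunit in, stood at 501, 506, 594 and 503.5 CPM in dorsal striatum 1 to 4 and at 425, 445, 378 and 458 CPM in accumbens 1 to 4. Every accumbens library was below every dorsal one, with dorsal striatum 3 highest and accumbens 3 lowest. It did not pass (log2 fold change -0.30 ± 0.12 SE, edgeR adjusted p = 0.205). An exon of Rev1 on the opposite strand overlaps it, and with the strand setting of the counting unknown, reads of the 2 genes cannot be told apart there. Eif5b was not alone in this. Of the 64 factor genes, 27 share exon positions with neighbouring genes, and 17 of them, Eif5b included, with a neighbour on the opposite strand. Eif2b4 (with Snx17), Eif2ak1 (Aimp2 and Ankrd61), Eif4a2 (Rfc4) and Eef1b2 (Ndufs1) are among the 17. Their levels and changes carry the same limit. Eif6, which keeps the ribosomal subunits apart, was at 19.2 to 23.2 CPM in dorsal striatum and at 16.7, 7.42, 20.2 and 19.3 CPM in accumbens (a log2 fold change of -0.39 ± 0.32 SE, edgeR adjusted p = 0.646). Accumbens 2 lay far below the rest.

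eIF5A, which carries the modified residue hypusine and helps ribosomes through stalling sequences, comes in 2 copies. Eif5a2 stood at 67.9, 46.9, 73.04 and 85.1 CPM in dorsal striatum 1 to 4 and at 49.2, 51.4, 56.3 and 50.8 CPM in accumbens 1 to 4 (a log2 fold change of -0.39 ± 0.20 SE, edgeR adjusted p = 0.374). Dorsal striatum 2 was the lowest library and the other dorsal ones exceeded all of accumbens. With the glial covariate the log2 fold change turned to 0.0236. Eif5a had a log2 fold change of 0.21 ± 0.17 SE (edgeR adjusted p = 0.636). Scaled by exon length, Eif5a2 was 20.01% ± 5.89 of the eIF5A level in dorsal striatum against 13.98% ± 1.68 in accumbens (SD, n = 4 each), with libraries ranging from 12.3% to 25.3%.

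No difference passed the test in the start codon group of 6 genes, and log2 fold changes ran from -0.18 to 0.18. Eif1 stood at 238, 235, 185 and 295 CPM in dorsal striatum 1 to 4 and at 249, 283.5, 249.5 and 212.5 CPM in accumbens 1 to 4, so its 4 dorsal values enclosed all accumbens ones. Eif5, the GTPase activator of eIF2, was at 229 to 316 CPM and at 222 to 243 CPM (log2 fold change -0.18 ± 0.14 SE, edgeR adjusted p = 0.610), and its log2 fold change turned to 0.0239 with the glial covariate.

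The eIF2 complex showed the Y-linked copy in every library. The alpha and beta subunit genes Eif2s1 and Eif2s2 stood at 65.4 ± 14.2 and 67.2 ± 5.75 CPM in dorsal striatum and 60.07 ± 11.4 and 66.6 ± 5.32 CPM in accumbens (SD, n = 4 each). Eif2s3x (chromosome X, 94188707 to 94212862) had counts of 262, 278, 274 and 280 in dorsal striatum 1 to 4 and of 281, 351, 393 and 337 in accumbens 1 to 4. Eif2s3y (chromosome Y, 1010543 to 1028847) had counts of 117, 163, 58 and 106 and of 116, 174, 61 and 149. Dorsal striatum 3 and accumbens 3 were the low libraries. Of the 50-base stretches of Eif2s3x 36.2% occur in other genes, and 0% of those of Eif2s3y. Per kilobase, the Y copy made up between 23.9% and 54.3% of both copies together. Neither copy was called (log2 fold changes -0.14 ± 0.22 and -0.23 ± 0.40 SE, edgeR adjusted p = 0.846 and 0.867).

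Other sex-linked genes gave the same picture of the libraries. The Y-linked helicase gene Ddx3y had 266 to 544 counts, Kdm5d 213 to 541 and Uty 88 to 255, while Xist, the RNA of the inactive X chromosome, had counts of 1, 7, 0 and 2 in dorsal striatum 1 to 4 and of 6, 1, 0 and 0 in accumbens 1 to 4. Y-linked RNA was therefore in every library. The low Eif2s3y of dorsal striatum 3 and accumbens 3 was shared in accumbens 3 by Ddx3y, its lowest of the region, but not by Uty, its highest.

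**Figure D4:**
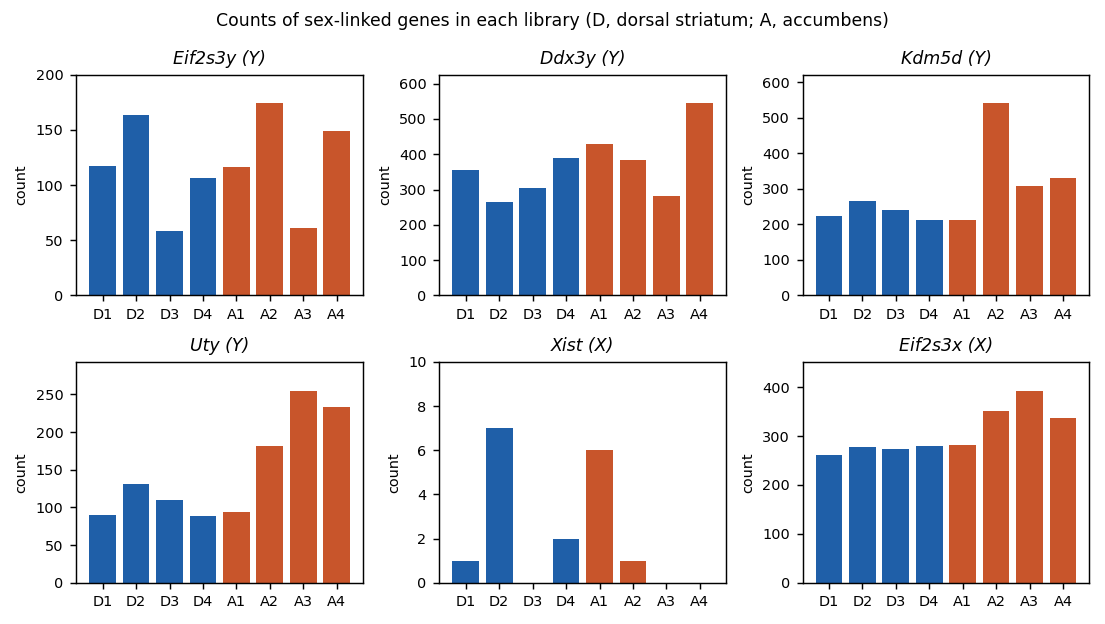
Counts, not scaled for depth, of 4 Y-linked genes, Xist and Eif2s3x in each library (bars, axes from 0; D1 to D4 dorsal striatum, A1 to A4 accumbens). All 8 libraries hold Eif2s3y, with 58 to 174 counts, and none has more than 7 counts of Xist.

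Upstream of eIF2, the eIF2B exchange factor had 4 of 5 subunit genes above 0 on the log2 scale, with a median of 0.33 and 0 called. Eif2b4 had the second largest positive value of the 61 genes, with 7.81, 12.8, 11.07 and 4.04 CPM in dorsal striatum 1 to 4 and 12.3, 13.2, 17.6 and 15.4 CPM in accumbens 1 to 4 (a log2 fold change of 0.71 ± 0.39 SE, edgeR adjusted p = 0.422). Dorsal striatum 2 lay within the accumbens range. Eif2b2 ranged from 9.64 to 38.2 CPM within accumbens alone (0.33 ± 0.35 SE), and Eif2b5, the catalytic subunit gene, had a log2 fold change of -0.15 ± 0.39 SE.

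The 4 kinases that phosphorylate eIF2 alpha differed widely in level. Eif2ak1, known as the heme-regulated inhibitor, was the most abundant at 22.2 ± 3.87 CPM per kilobase in dorsal striatum against 20.4 ± 2.48 in accumbens (SD, n = 4 each). The amino acid sensor gene Eif2ak4 stood at 1.62 ± 0.874 and 1.26 ± 0.708 CPM per kilobase and the endoplasmic reticulum sensor gene Eif2ak3 at 1.30 ± 0.541 and 1.146 ± 0.809, which overlap. Eif2ak2, the sensor of double-stranded RNA, had counts of 2, 22, 17 and 0 in dorsal striatum 1 to 4 and of 49, 37, 3 and 8 in accumbens 1 to 4, so both regions held libraries near 0. None of the 4 was called, with log2 fold changes from -0.37 to 0.78.

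Scatter between libraries of 1 region was widest, among the tested genes, for Eif2ak2. The coefficient of variation, the SD as a percentage of the mean, passed 50 in at least 1 region for 8 of the 61 genes. They were Eif2ak2, Eif2ak3, Eif2ak4, Eef2k, Eef2kmt, Eef1e1, Eif2b2 and Eif2d. It was 105 and 94.4 for Eif2ak2 in dorsal striatum and accumbens, and 5.30 and 10.8 for Eif4g2. Wide scatter leaves the 8 genes less able to show a difference. Not all of them were scarce, since Eef2k had 80 to 339 counts. Eif3j2, with 6 to 18 counts, had coefficients of only 27.6 and 39.4 in dorsal striatum and accumbens.

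The eIF3 complex, the largest initiation factor, had 14 genes, 0 of them called, with log2 fold changes from -0.28 to 0.22 and a median of 0.03. Their levels were unequal although the proteins form 1 complex. In dorsal striatum Eif3a, Eif3c and Eif3g stood at 119 ± 24.3, 79.9 ± 15.1 and 57.4 ± 4.66 CPM per kilobase, whereas Eif3b stood at 11.5 ± 1.70 and Eif3d at 8.01 ± 2.12 (SD, n = 4). Leaving out Eif3j2, the highest level, that of Eif3a, was 34.1 times the lowest, that of Eif3j1. That figure rests on Eif3j1, itself uncertain in level, and the next lowest was Eif3d. Eif3a itself was at 556, 618, 782 and 491 CPM in dorsal striatum 1 to 4 and at 680.4, 536, 684 and 623 CPM in accumbens 1 to 4. The dorsal range enclosed the accumbens range (log2 fold change 0.04 ± 0.14 SE, edgeR adjusted p = 0.939). Eif3j1 and Eif3j2 share 54.8% and 91.8% of their 50-base stretches with other genes and are uncertain in level.

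At the cap, the scaffold Eif4g2, which lacks the eIF4E-binding part of its relatives, was the most counted of the 3 eIF4G genes at 608 ± 32.2 CPM in dorsal libraries and 605.5 ± 65.4 CPM in accumbens ones (SD, n = 4 each). Eif4g3 stood at 376 ± 22.04 and 338 ± 17.9 CPM and Eif4g1 at 156 ± 26.7 and 160.0 ± 17.1 CPM. Per kilobase the order in dorsal striatum was the same, with 76.0 ± 4.02, 37.2 ± 2.18 and 25.8 ± 4.42. None of the 3 was called. Of the helicase genes, Eif4a2 had a log2 fold change of 0.0035 ± 0.16 SE (edgeR adjusted p = 0.997) and Eif4a1 had -0.24 ± 0.14 SE (edgeR adjusted p = 0.486), with 65.3% of its 50-base stretches in other genes. Eif4b, a helper of eIF4A, stood at 379 ± 44.9 and 415 ± 35.4 CPM.

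Eif4e, the cap-binding protein gene, stood at 105, 91.7, 69.6 and 132 CPM in dorsal striatum 1 to 4 and at 94.7, 109, 83.3 and 117 CPM in accumbens 1 to 4 (a log2 fold change of 0.02 ± 0.19 SE, edgeR adjusted p = 0.984). Its inhibitor gene Eif4ebp2, the 4E-BP known from brain, stood at 42.5, 56.8, 37.5 and 53.3 CPM and at 50.96, 110.2, 53.1 and 60.02 CPM. Accumbens 2 alone was far above the rest, and the other accumbens values lay close to the dorsal ones (log2 fold change 0.53 ± 0.25 SE, edgeR adjusted p = 0.327). Without accumbens 2 its log2 fold change was 0.20 (edgeR adjusted p = 0.744). Eif4enif1, which carries eIF4E into the nucleus, was at 128 ± 15.6 and 132.5 ± 12.1 CPM.

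Ratios of genes within a library do not depend on how libraries are scaled. Of the pairs tested, Eef2k/Eef2 sets a kinase gene against that of its target, and the others hold copies within a family. For 10 pairs with enough counts the log2 ratio of counts (plus 0.5) was compared between regions with a two-sided exact permutation test, whose smallest p for 4 against 4 libraries is 0.0286. The ratio Eef1a2/Eef1a1 averaged -1.25 ± 0.30 in dorsal striatum against -1.69 ± 0.24 in accumbens (SD, n = 4 each; exact permutation p = 0.0571, adjusted over the 10 ratios p = 0.5). Single libraries were at -1.41, -1.58, -0.91 and -1.11 in dorsal striatum and at -1.95, -1.42, -1.82 and -1.59 in accumbens, so the regions overlapped. The ratio Eif5a2/Eif5a was -0.97 ± 0.55 and -1.55 ± 0.20 (exact permutation p = 0.114, adjusted p = 0.5), and Eef2k/Eef2 was -4.10 ± 0.59 and -5.21 ± 1.10 (exact permutation p = 0.171, adjusted p = 0.5). All 10 ratios overlapped between regions, and the other 7 had exact permutation p from 0.2 to 0.971.

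**Figure D5:**
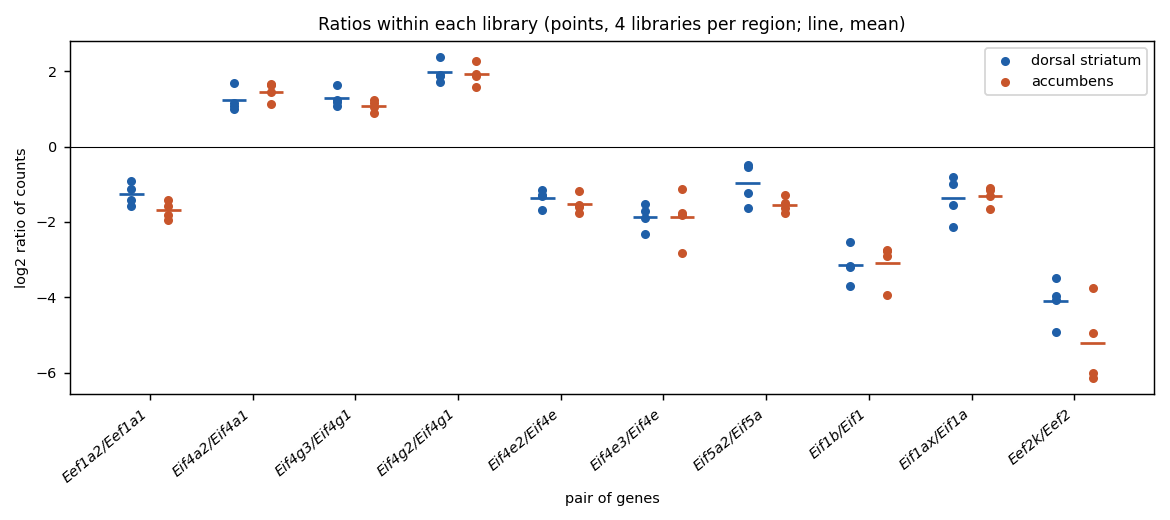
Log2 ratio of counts (plus 0.5) of 10 pairs of genes within each library. Points are libraries, 4 per region (dorsal striatum blue, accumbens orange), and lines are means. The regions overlap for all 10 pairs, and the widest scatter is that of Eef2k/Eef2 in accumbens, from -6.13 to -3.76.

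Other genes of translational control gave 2 calls. Among 27 tested genes of the mTORC1 pathway 1 was called, or 3.704%, a share near the 3.72% of all tested genes. The called gene was Deptor, which encodes a protein that binds and inhibits mTOR. It stood at 65.9, 63.6, 74.98 and 57.05 CPM in dorsal striatum 1 to 4 and at 21.8, 36.8, 14.5 and 30.9 CPM in accumbens 1 to 4. It was lower in every accumbens library (log2 fold change -1.33 ± 0.26 SE, edgeR adjusted p = 0.00507), and with the glial covariate it was not called (-1.38, adjusted p = 0.0798). Mtor itself was at 114 ± 22.01 and 133 ± 14.02 CPM (SD over 4 libraries), with a log2 fold change of 0.22 ± 0.16 (SE, edgeR adjusted p = 0.603). The median log2 fold change of that list was 0.0024, and 6 of its 27 genes had an unadjusted p under 0.05, beside 14.8% of all tested genes.

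Among 24 tested genes of neuronal translational control 1 was called, or 4.17%, also near the 3.72% of all tested genes. An unadjusted p under 0.05 was found for 5 of the 24, beside 14.8% of all tested genes. The called gene was Cyfip2, whose protein joins the fragile X protein FMRP and the actin-regulating WAVE complex. It stood at 1672, 2002, 2041 and 2035 CPM in dorsal striatum 1 to 4 and at 1217, 1422, 1504 and 1426 CPM in accumbens 1 to 4, without overlap (log2 fold change -0.48 ± 0.11 SE, edgeR adjusted p = 0.0170). Its call was lost with the glial covariate (-0.41, adjusted p = 0.283), without dorsal striatum 3 (-0.45, 0.0532), without accumbens 1 (-0.41, 0.0720) and without both dorsal striatum 3 and accumbens 2 (-0.46, 0.0827). DESeq2 called Ago4, an Argonaute gene, as well, which edgeR did not (log2 fold change -1.18 ± 0.34 SE, adjusted p = 0.0636).

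In the remaining lists edgeR called 0 genes. They held 18 tested genes of the integrated stress response, which eIF2 alpha phosphorylation sets off (median log2 fold change 0.29), 10 of hypusine synthesis (0.15), 9 mitochondrial translation factors (0.14), 9 of poly(A) binding (0.03), 9 of termination and recycling (0.05), 7 kinases of the eIF4E pathway (-0.11), 7 other helicases (0.00047) and 10 of selenocysteine insertion and related elongation steps (-0.04). At an unadjusted p under 0.05 there were 3 of the 7 kinases of the eIF4E pathway and 1 gene each of the stress response, poly(A) binding, helicase and hypusine lists. Over all tested genes that share was 14.8%. DESeq2 called 2 of the kinases, Mapk3 and Rps6ka3, limma-voom called 1, and neither called a gene of the other lists. Over all tested genes DESeq2 called 6.12% and limma-voom 4.17%. Atf4, the transcription factor gene translated when eIF2 is phosphorylated, was at 48.7 ± 16.5 CPM in the dorsal libraries against 60.7 ± 13.2 CPM in the accumbens libraries (SD, n = 4 each), which overlap.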

How the data were processed

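Tagged ribosomes were purified from 4 dorsal striatum and 4 accumbens samples and their RNA was sequenced. The authors deposited raw read counts per gene, for which the submitters' processing notes name STAR 2.0.0e, HTSeq and mm10. Annotation, strand setting and read filters are not given in the sources used here. Each file held 32531 gene rows, and 5 further rows of unassigned reads held 27.1% to 40.65% of all reads. These rows entered neither library sizes nor tests. Libraries were distinct, since no pair agreed within sampling noise.

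The test on counts was that of edgeR 4.0.16 under R 4.3.3 (TMM scaling, filterByExpr with a minimum count of 10, quasi-likelihood F test, Benjamini-Hochberg adjustment over all 12467 tested genes, threshold 0.05), with DESeq2 1.42.0 and limma 3.58.1 (voom) as alternatives. The edgeR script was first tested on simulated data. CPM used TMM-scaled library sizes. Levels between genes used CPM per kilobase of exon from GENCODE M21, and 11584 tested genes had a length. Shared sequence was counted as 50-base stretches of a gene's transcript found in transcripts of other genes. The glial covariate was the centred mean log2 level of the astrocyte, oligodendrocyte and microglia markers. Replicate numbers did not pair the libraries. The floor of 3 counts covers counting error only, while the SDs and SEs also hold the scatter between libraries.

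The genes, roles and lists were chosen with earlier results of these data known. Named genes were those called, the 3 largest changes in each direction averaging at least 5 CPM, the 2 most abundant of each role, both members of each ratio tested and the eIF2 gamma copies. Of each other list, called genes were named. Other genes named were chosen after their values were seen. The ratio Eif4ebp2/Eif4ebp1 was left out for low counts.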

Additional observations from a re-analysis of the deposited data

Results flagged for a closer look

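Among 98 sets of 4 library values (39 genes and 10 ratios in each region), 6 held a library that lay far from the other 3, by Dixon's test of the gap against the whole range. Chance gives about 1 in 20 such sets. Eef2k was low in dorsal striatum 1, at a log2 CPM of 3.53 beside 4.52 to 4.66 in the others. Eif4e2, a cap-binding relative of eIF4E, was low in dorsal striatum 3, at 4.85 beside 5.36 to 5.40. Eif5b was high in dorsal striatum 3, at 9.22 beside 8.97 to 8.98. Accumbens 2 held the other 3. Eif2ak1 was low there, at 6.175 beside 6.52 to 6.57, and Eif4enif1 was high, at 7.24 beside 6.96 to 7.003. The log2 ratio Eif1b/Eif1 was -3.95 there, beside -2.92 to -2.75.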

How the results depend on the processing

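Against 464 genes called, DESeq2 called 763, the fit with the glial covariate 120, and leaving out 1 library gave 324 to 411. Against 1 translation factor called, the fit with the glial covariate called 0, leaving out both dorsal striatum 3 and accumbens 2 called 0, and leaving out 1 library gave 0 to 1. With the glial covariate the log2 fold changes of Eif5a2 and Eif5 turned to 0.0236 and 0.0239. The cause was not tested. Of 741 alternative values for 39 named translation factors, 724 were counted as keeping their direction and their side of the threshold. Uncalled genes within 1 SE of 0 were given no direction, so some of the 724 values changed sign. Eef1a1, the called gene, kept its call in 11 of 19 settings. None of the 10 ratios passed with a pseudocount of 5. With the block the smallest p is 0.125, so none could pass. Without 1 library 4 of the 10 turned sign: Eif1ax/Eif1a (-0.18 to 0.25), Eif1b/Eif1 (-0.14 to 0.33), Eif4e3/Eif4e (-0.27 to 0.30) and Eif4g2/Eif4g1 (-0.18 to 0.08). The correlations of deviations between libraries of the same replicate number ran from -0.08 to 0.01, and 0 of 4 numbers matched best with themselves. With that replicate block, 432 genes and 1 translation factor, Eef1a1, were called (log2 fold change 0.58, edgeR adjusted p = 0.0191). Leaving out both outer libraries, leaving out 3 genes of the ribosomal and mitochondrial RNA pool, and thinning the libraries were chosen after seeing the data. Depth limits most the genes of few counts, such as Eif2ak2 and Eef2kmt.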

Other observations

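Dorsal striatum 4 held the highest or the lowest of the 8 CPM values for 47.5% of the 61 tested translation factors, beside 30.9% of all tested genes. It was the highest for 12 of them, and the lowest for 17. Accumbens 2 held an extreme value for 32.8% beside 37.5%, and dorsal striatum 3 for 31.1% beside 34.0%. Dorsal striatum 4 had the lowest value of the 8 for Eef2, Eef1a2, Eef1b2, Eef1d and Eef1g, and the highest for Eif4e, Eif1, Eif5 and Eif5a2. The 64 genes together took 0.663% of gene counts in it, the lowest share of the 8 libraries, which ran up to 0.743%. Eif2b4 was lowest in it too, at 4.04 CPM, while Eif2s1 was highest, at 85.7 CPM. These genes were picked after their values were seen, and the difference in shares was not tested.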
